A study of Mus musculus with 3 samples.

Results

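The genes described here are 38 cell division genes, whose transcripts are made mainly by cells that are copying their DNA or separating their chromosomes. They were chosen by name and role, with earlier results of these libraries known, and all 38 were found among the 19091 genes counted in 3 mouse liver libraries. Each library was a pool of 3 livers of adult C57BL/6 mice (C57BL/6J in the study's methods), so each condition was 1 library. The first was labelled as a sham-operated control with tissue taken after 1 day, and the others as liver taken 1 and 7 days after irreversible electroporation (IRE), in which short electric pulses kill the cells between the electrodes. The labels give 8 pulses of 50 ms at 75 V, and a 4 mm punch of each liver was digested to single cells for Drop-seq, all 3 conditions sharing surgery and digestion. Drop-seq joins each cell with a barcoded bead in a droplet and counts unique molecular identifiers (UMIs), so that a UMI stands for 1 captured transcript.

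A dividing cell first makes the building blocks of DNA and loads the helicase that opens it, then replicates its genome, and then builds a spindle that pulls the copies apart. The proteins needed for each step are made in waves, the replication genes before and during DNA synthesis and most mitosis genes after it. In adult liver most hepatocytes rest and re-enter the cycle after tissue loss, while immune cells, Kupffer cells (the resident macrophages of the liver), endothelial cells and fibroblasts divide during repair. By this order the 38 genes were put in 2 groups, a replication side of 10 genes for nucleotide supply and DNA replication, and a mitosis side of 28 genes.

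A barcode was kept when at least 200 genes were detected. This left 10386 barcodes in the library labelled control, 9253 in the library labelled 1 day and 5624 in the library labelled 7 days, with 8013800, 6107866 and 3058967 UMIs. The median depth ran from 456.5 to 595 UMIs per barcode, mitochondrial transcripts took 4.10% of the UMIs in the library labelled 7 days against 20.5% and 21.7% in the libraries labelled control and 1 day, and 44 to 149 barcode sequences were kept in both libraries of a pair. Markers of several cell types went against the labels, and a few others did not clearly do so. Kupffer cells and sinusoidal endothelium make up most non-parenchymal cells of intact liver, whereas collagen-producing cells and macrophages with Gpnmb and Trem2 gather in injured liver. Yet Clec4f, a marker of Kupffer cells, was found in 48.9% of barcodes of the library labelled 1 day, in 21.9% of those labelled control and in 4.55% of those labelled 7 days. Gpnmb was found in 10.7% of barcodes labelled control, in 0.151% of those labelled 1 day and in 4.39% of those labelled 7 days, and Col3a1, a fibrillar collagen, in 8.63%, 0.724% and 0.160%. By contrast, Arg1, used below as a macrophage marker, was found in 3.95%, 11.2% and 45.6% of barcodes and Thbs1 in 1.32%, 0.616% and 43.6%. Both were most frequent in the library labelled 7 days. The library labelled 1 day held 8 barcodes of the Arg1 and Ccl2 macrophage-like class described below, against 30 in that labelled control. Alb, a hepatocyte marker, was found in 90.5% of barcodes labelled 1 day, and which cells carried the Arg1 there was not tested. The 12 mesenchymal markers summed to 2451 counts per 1000000 UMIs (CPM) in the library labelled control, with all 12 found, to 92.2 in that labelled 1 day, again with all 12, and to 27.8 in that labelled 7 days, with 9. The 12 neutrophil markers summed to 4046, 741 and 43930 CPM in the libraries labelled control, 1 day and 7 days. Barcodes of the neutrophil-like class described below were 2.07%, 0.205% and 31.0% of these libraries. The paper describes Ly6G-positive cells gathering in wounds at day 1 after injury, yet the library labelled 1 day had the lowest level. Whether libraries were exchanged was not tested. The libraries are named by their labels throughout, and each direction below is a direction between labels.

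The start of each gene is shown for 5 members because the groups differ in short sequences found there. Promoter sequences from RefSeq (GRCm38.p6) were at hand for 33 of the 38 genes, and reach from 250 bases before to 50 bases after the start. The motifs below were searched on both strands. TTTGAA is the core of the cell cycle homology region (CHR), CCAAT is the box bound by NF-Y, and TTTCGCGC, TTTGGCGC and TTTCCCGC are forms of the E2F site. TTTGAA was found in 18 of 23 promoters of the mitosis side (78.3%) and in 1 of 10 of the replication side, against 18.1% of the 27025 promoters of this length that were read. All 18 of these mitosis-side promoters also held CCAAT, a pairing found in 7.12% of promoters read. CCAAT alone was found in 21 of 23 and in 7 of 10, against 37.9% of promoters read. An E2F form was found in 3 of 10 promoters of the replication side, those of Mcm3, Mcm5 and Mcm6, and on the mitosis side in that of Cdk1 only, against 1.91% of promoters read. A match is a description of letters, not a site of binding. The 130 bases before the start follow for 3 mitosis-side genes and 2 replication-side genes, 5′ to 3′ on the strand of the gene, with motif matches on either strand in capitals.
Top2a, chr11:99024190-99024319, minus strand: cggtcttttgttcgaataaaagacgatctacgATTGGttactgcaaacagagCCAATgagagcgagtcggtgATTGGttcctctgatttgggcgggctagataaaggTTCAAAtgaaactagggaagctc
Mki67, chr7:135716380-135716509, minus strand: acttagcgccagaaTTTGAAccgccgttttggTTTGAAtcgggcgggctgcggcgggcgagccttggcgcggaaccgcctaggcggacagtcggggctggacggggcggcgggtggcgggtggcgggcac
Cdc20, chr4:118437344-118437473, minus strand: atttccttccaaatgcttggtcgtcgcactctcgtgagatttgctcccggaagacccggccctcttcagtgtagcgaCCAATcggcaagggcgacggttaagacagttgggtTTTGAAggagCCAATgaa
Mcm3, chr1:20820313-20820442, minus strand: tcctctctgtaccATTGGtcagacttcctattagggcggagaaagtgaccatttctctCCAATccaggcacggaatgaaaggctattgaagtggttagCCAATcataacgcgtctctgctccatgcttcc
Mcm6, chr1:128359706-128359835, minus strand: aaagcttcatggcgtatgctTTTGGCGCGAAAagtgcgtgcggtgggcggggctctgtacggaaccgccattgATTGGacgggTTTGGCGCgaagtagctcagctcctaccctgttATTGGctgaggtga
The 3 mitosis-side stretches hold the letters TTTGAA or their complement, and the 2 replication-side stretches do not. In Mcm6 the first run of capitals covers 2 overlapping E2F forms, TTTGGCGC and the complement of TTTCGCGC, and the E2F forms of Mcm3 lie outside the stretch shown.

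Summed over the 38 genes, transcripts were most frequent in the library labelled control and least frequent in the library labelled 7 days. The sums were 16302 UMIs in the library labelled control, 6190 in the library labelled 1 day and 1139 in the library labelled 7 days. In CPM, that is per 1000000 UMIs of the same library or, further below, of the same class, this is 2034 (exact Poisson interval 2003 to 2066), 1013 (988 to 1039) and 372 (351 to 395). All intervals here are 95% intervals that cover counting error only, since 1 library per condition allows no test, and none of the differences has a replicate check. The library labelled 1 day held 0.498 times the level of the library labelled control (0.484 to 0.513), and the library labelled 7 days 0.183 times (0.172 to 0.194). In these mixtures of cells, fewer dividing cells and fewer transcripts per dividing cell cannot be told apart from a sum alone. The barcode counts further below do not separate them, since either would lower the share of barcodes with several members.

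The sides of the list differed in the size of these ratios. The replication side was at 401, 258 and 189 CPM in the libraries labelled control, 1 day and 7 days, and the mitosis side at 1633, 756 and 184. The ratio of the library labelled 7 days to that labelled control was 0.471 (0.430 to 0.514) on the replication side and 0.112 (0.103 to 0.122) on the mitosis side. Replication-side transcripts were 19.7% of all member UMIs in the library labelled control, 25.4% in the library labelled 1 day and 50.7% in the library labelled 7 days. A single gene, Pcna, supplied 57.9% of the replication-side UMIs in the library labelled 7 days, and without it this side was at 277 (265 to 288), 187 (176 to 198) and 79.4 CPM (69.8 to 90.1). The mitosis side without Cenpa was at 1583, 725 and 155 CPM.

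**Figure D1:**
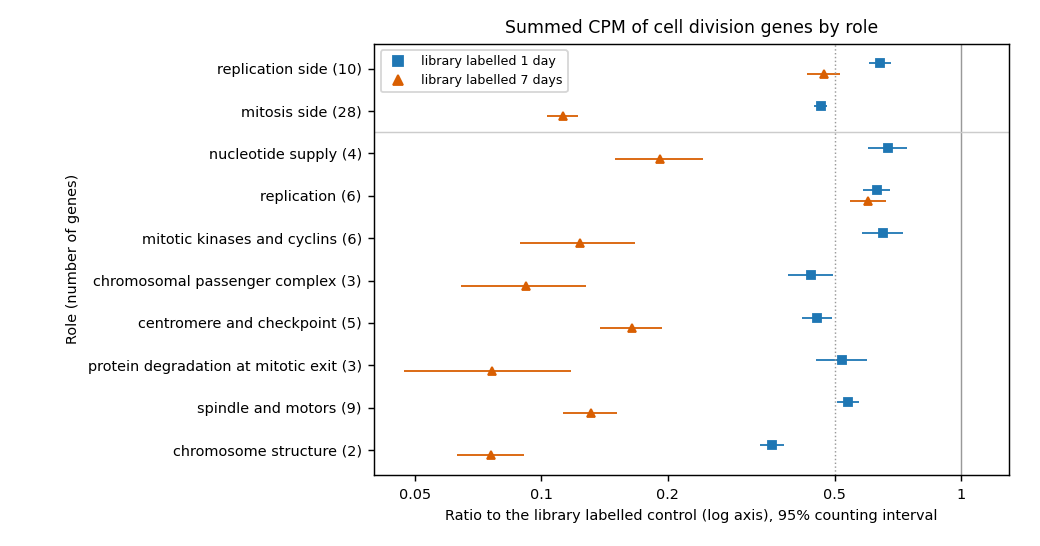
Summed CPM of each role relative to the library labelled control (log axis), for the libraries labelled 1 day (squares) and 7 days (triangles), with 95% counting intervals. The 2 sides stand above the line and the 8 roles below it. For the library labelled 7 days, replication stands at 0.601 and the other roles at 0.192 or less, down to 0.0760 for chromosome structure.

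A gene was counted as different between 2 libraries when it had at least 20 UMIs in them together and differed by at least 2-fold. Between the libraries labelled 1 day and control, 11 of 38 members were at least 2-fold lower, against 7.14% of 12988 genes, and 0 were at least 2-fold higher, against 13.6% of genes. Between those labelled 7 days and control, 36 of 38 were lower and 0 higher, against 26.3% and 8.79% of 12074 genes. Between those labelled 7 days and 1 day, 34 of 38 were lower and 0 higher, against 31.8% and 11.3% of 12116 genes. The median log2 ratio of the members was -0.82, -2.88 and -1.94 in these comparisons, and that of all genes 0.05, -0.29 and -0.32. The comparisons share libraries and are not independent of each other. With mitochondrial genes left out of the total, the median of all genes moved from -0.29 to -0.55 and from -0.32 to -0.62 in the comparisons with the library labelled 7 days, and the members' counts were 37 and 34. The 2 members within 2-fold between the libraries labelled 7 days and control were Pcna and Cenpa. The values of each member follow by role, always in the order of the libraries labelled control, 1 day and 7 days, and a level is compared between libraries and never between genes, whose transcripts differ in length and capture.

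**Figure D2:**
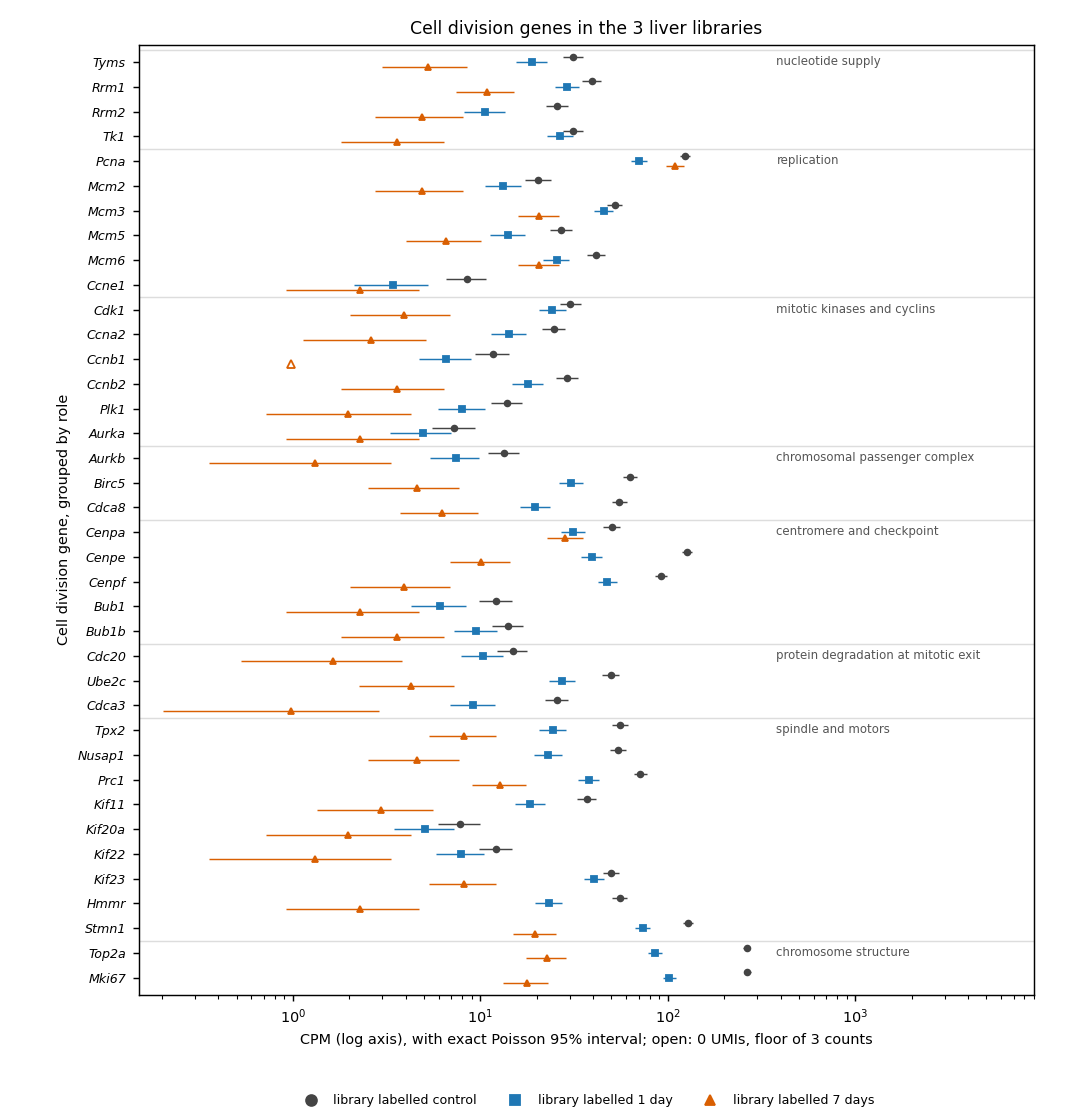
CPM of the 38 genes in the 3 libraries (log axis) with exact Poisson 95% intervals, grouped by role. The order control, 1 day, 7 days holds in 37 of the 38 rows, Pcna at 124, 70.4 and 109 being the exception, and the open triangle of Ccnb1 marks the floor of 3 counts for 0 UMIs.

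The 4 genes of nucleotide supply summed to 128, 85.3 and 24.5 CPM. Tyms, which makes thymidylate, was at 31.3, 18.8 and 5.23 CPM. Rrm1, the large subunit of ribonucleotide reductase, was at 39.2, 29.1 and 10.8. Rrm2, its S-phase subunit, was at 25.7, 10.6 and 4.90, and was the one gene of this role at least 2-fold lower in the library labelled 1 day (0.414 times, 0.308 to 0.550). Tk1, which salvages thymidine, was at 31.3, 26.7 and 3.60. Its ratio of the library labelled 1 day to that labelled control, 0.852, had an interval that held 1 (0.695 to 1.04).

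Replication proper summed to 273, 172 and 164 CPM. Mcm2, Mcm3, Mcm5 and Mcm6 are subunits of the helicase that opens the double strand. Mcm2 was at 20.3, 13.3 and 4.90 CPM. Mcm3 was at 52.0, 45.5 and 20.6. Mcm5 was at 27.0, 14.1 and 6.54. The last of these, Mcm6, was at 41.3, 25.5 and 20.6, and its ratio of the library labelled 7 days to that labelled 1 day had an interval that held 1 (0.592 to 1.09). Pcna, the clamp that holds DNA polymerases on their template and also serves DNA repair, was at 124 (117 to 132), 70.4 (63.9 to 77.4) and 109 (97.8 to 122). It was the one member whose level was higher in the library labelled 7 days than in that labelled 1 day with an interval above 1 (1.55 times, 1.34 to 1.79), and it is singled out here after its values were seen. Ccne1, the cyclin of entry into DNA synthesis, was among the members with fewest UMIs, with 68, 21 and 7.

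The 6 mitotic kinases and cyclins summed to 117, 76.0 and 14.4 CPM. Cdk1, the kinase that drives entry into mitosis, was at 30.2, 24.2 and 3.92. Ccna2, its cyclin partner from replication onward, was at 24.7, 14.2 and 2.62. Ccnb2, a B-type cyclin, had 233, 110 and 11 UMIs. Ccnb1, the other B-type cyclin of the list, had 93, 40 and 0 UMIs, so the library labelled 7 days stood at no more than 0.0845 times that labelled control, with 3 counts in this library as the floor. Plk1, a kinase of spindle assembly, was at 13.9, 8.02 and 1.96, and Aurka, the centrosomal Aurora kinase, had 58, 30 and 7 UMIs. In the library labelled 1 day 0 of the 6 were 2-fold lower, against 7.14% of genes, and in the library labelled 7 days all 6, against 26.3%.

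The chromosomal passenger complex corrects the attachment of chromosomes to the spindle, and its 3 members summed to 132, 57.6 and 12.1 CPM. Its kinase Aurkb was at 13.4, 7.37 and 1.31. Birc5 (survivin) was at 63.0, 30.6 and 4.58. Cdca8 (borealin) was at 55.2, 19.6 and 6.21. Birc5 and Cdca8 were at least 2-fold lower already in the library labelled 1 day, at 0.486 (0.409 to 0.576) and 0.356 times (0.289 to 0.437) the library labelled control.

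The centromere and checkpoint genes summed to 294, 134 and 48.4 CPM. Cenpe, a motor at the kinetochore, was at 127, 39.3 and 10.1 CPM, and its ratio of 0.311 (0.269 to 0.358) was the lowest of all 38 genes in the library labelled 1 day. Cenpf, a kinetochore protein made late in the cycle, was at 91.7, 47.6 and 3.92. Bub1b, part of the checkpoint that waits for all chromosomes to attach, was at 14.0, 9.50 and 3.60, and its partner Bub1 had 97, 37 and 7 UMIs. Cenpa, the histone that marks centromeres, was at 50.2 (45.4 to 55.3), 31.3 (27.0 to 36.0) and 28.4 (22.8 to 35.1). Like Pcna, it was singled out after its values were seen, because its ratio of the library labelled 7 days to that labelled 1 day, 0.910, had an interval that held 1 (0.698 to 1.18), as that of no other gene of this role did.

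The 3 genes of the role named protein degradation at mitotic exit, a name that does not cover Cdca3, summed to 721, 286 and 21 UMIs. Cdc20, the activator of the anaphase-promoting complex, was at 14.8, 10.3 and 1.63 CPM. Ube2c, the ubiquitin-conjugating enzyme of that complex, was at 49.5, 27.3 and 4.25. Cdca3, which triggers the breakdown of a mitotic inhibitor, was at 25.6, 9.17 and 0.981. The last value of Cdca3 rests on 3 UMIs, and its ratio to the library labelled control was 0.0383 (0.00784 to 0.114), the lowest of the 37 genes with any UMI in both libraries.

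The 9 spindle proteins and motors summed to 472, 254 and 61.8 CPM. Tpx2, which nucleates microtubules around chromosomes, was at 55.7, 24.4 and 8.17. Nusap1, which bundles spindle microtubules, was at 54.4, 23.1 and 4.58. Prc1, which crosslinks the microtubules of the midzone, had 573, 232 and 39 UMIs. Kif11, the motor that pushes the spindle poles apart, was at 36.9, 18.5 and 2.94 CPM. Kif23, a motor of cytokinesis, was at 49.7, 40.4 and 8.17, and its ratio of 0.814 (0.692 to 0.957) in the library labelled 1 day was the highest of this role. Hmmr, a spindle-associated receptor of hyaluronan, was at 55.5, 23.2 and 2.29. Stmn1, which destabilises microtubules and is also made by other cells than dividing ones, was at 128, 73.5 and 19.6. Kif20a and Kif22, 2 further motors, had 62 and 97 UMIs in the library labelled control and 6 and 4 in the library labelled 7 days.

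The last role, chromosome structure, holds a pair of genes. Top2a, the topoisomerase that untangles sister chromatids, had 2118, 525 and 69 UMIs, or 264, 86.0 and 22.6 CPM. Mki67, which coats mitotic chromosomes and is the usual marker of proliferation, had 2122, 621 and 54 UMIs, or 265, 102 and 17.7 CPM. Together they were 26.0% of all member UMIs in the library labelled control and 18.5% in the library labelled 1 day. Pcna and Cenpa were the leading pair in the library labelled 7 days, with 37.0%.

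In the library labelled control most member UMIs lay in a minority of barcodes, although barcodes picked for their members hold more member UMIs by construction. Of 10386 barcodes labelled control, 3538 held at least 1 member and 1113 held 3 or more, which is 10.7% (exact binomial interval 10.1 to 11.3%). These 1113 barcodes carried 80.6% of all member UMIs. Of 9253 barcodes labelled 1 day, 403 held 3 or more (4.36%, 3.95 to 4.79%), with 51.2% of member UMIs. Of 5624 labelled 7 days, 49 did (0.871%, 0.645 to 1.15%), with 34.8%. The richest barcode held 28 different members in the library labelled control, 21 in the library labelled 1 day and 13 in the library labelled 7 days. After every barcode had been thinned to 300 UMIs, which left out 209, 298 and 545 shallower barcodes, the shares were 5.63% (5.19 to 6.10%), 1.65% (1.40 to 1.94%) and 0.492% (0.319 to 0.726%). The order of the libraries was thus the same before and after thinning. Doublets were not called, and without the deepest 5% of barcodes the unthinned share in the library labelled control was 9.30%.

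Members differed in how closely they kept to such barcodes. For each gene, the share of its UMIs that lay in barcodes with at least 3 of the other 37 genes was computed. This share ran in the library labelled control from 67.9 to 93.7% over the mitosis side, with a median of 83.5%, and from 41.0 to 84.5% over the replication side, with a median of 57.6%. Plk1 had the highest share, 93.7%, and Mcm3 the lowest, 41.0%. In the library labelled 1 day the mitosis side ran from 29.8 to 75.7% and the replication side from 17.3 to 64.6%. In the library labelled 7 days, where 8 and 5 members had 20 or more UMIs, Pcna had 6.59% and Cenpa 12.6%, while Mki67 had 61.1% and Top2a 52.2%. Of the Pcna UMIs of that library, 80.2% lay in barcodes with no other member, and of those of Cenpa, 79.3%. Since this share also depends on how many members a library holds, genes are compared within a library only.

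**Figure D3:**
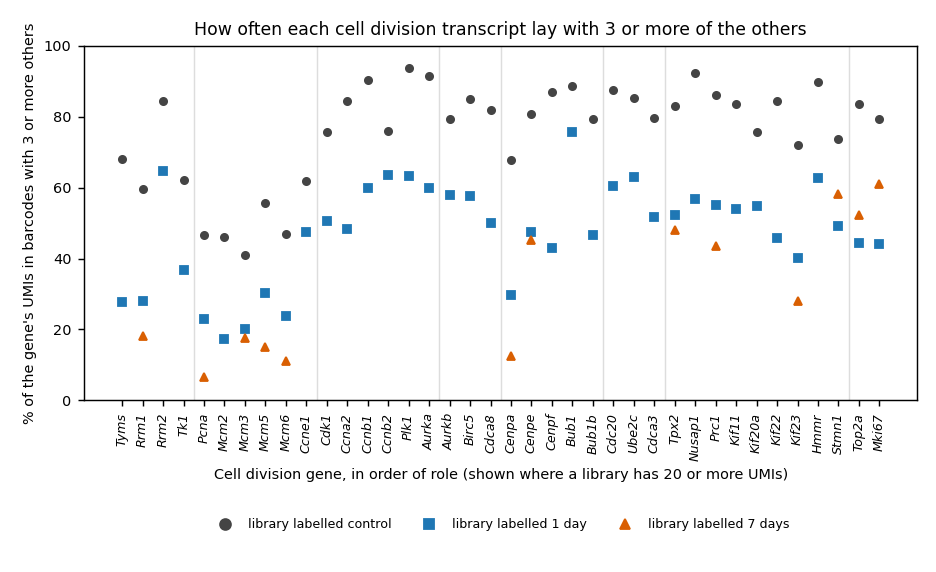
Percentage of each gene's UMIs found in barcodes with 3 or more of the other 37 genes, by library, for genes with 20 or more UMIs there. In the library labelled control (circles) the mitosis side lies between 67.9 and 93.7%, and in the library labelled 7 days (triangles) Pcna and Cenpa lie at 6.59 and 12.6%.

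The barcodes with 3 or more members were deeper than the rest and carried other genes of the cycle. Their median depth in the library labelled control was 921 UMIs against 571, with 555 detected genes against 325, and mitochondrial transcripts took 12.6% of their UMIs against 22.0%. Among genes outside the list, all 32 other replication genes with 20 or more UMIs were at least 2-fold higher in these barcodes, as were 43 of 44 other mitosis genes and 14 of 14 chromatin proteins known to be raised in dividing cells, against 7.53% of 11603 genes. The median ratios of these lists were 6.17, 18.5 and 4.44, and that of the other genes was 1.03. The genes named from these lists were chosen after their values were seen. Hmgb2, a chromatin protein, was at 3260 CPM in these barcodes and 344 in the rest (9.47 times), and 2810417H13Rik, an older symbol of the PCNA partner Pclaf, at 753 and 26.8. Pttg1 (securin), at 69.3 and 64.5, was the one mitosis gene within 2-fold. Of G1 cyclins and kinases, which act before DNA synthesis, 4 of 10 were at least 2-fold higher and none lower, and Ccnd1 (cyclin D1) was at 124 against 192 CPM. Of cell cycle inhibitors, 4 of 15 were higher and 1 lower, against 9.25% of genes lower. The inhibitor Cdkn2c was at 35.4 against 4.64 CPM, and Cdkn1c (p57) at 11.3 against 34.0. Summed over the list, the inhibitors were at 889 CPM in these barcodes and 869 in the rest of the library labelled control. The ratio of these sums was 1.02 (0.961 to 1.09) there, 1.39 (1.25 to 1.55) in the library labelled 1 day and 0.483 (0.363 to 0.629) in that labelled 7 days. Other replication genes stood at 6.51, 4.28 and 13.2 times in these 3 libraries, and other mitosis genes at 9.72 and 6.31 times in the libraries labelled control and 1 day, with 4634 against 358 CPM in that labelled 7 days.

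Most of these barcodes held mitosis-side transcripts, but the list they were picked by has 28 mitosis-side and 10 replication-side genes. The shares that this make-up alone would give were not computed. The split within a library is therefore a description of the barcodes and shows no preference for either side. Of the 1113 barcodes labelled control, 32.5% held members of the mitosis side alone and 1.62% members of the replication side alone, and 31.7% (29.0 to 34.5%) held 2 or more of both. The share with 2 or more of both was 24.1% of 403 barcodes in the library labelled 1 day and 12 of 49 in that labelled 7 days. Barcodes with 2 or more of the replication side and fewer than 2 of the mitosis side were 7.19% (5.74 to 8.87%), 9.43% (6.76 to 12.7%) and 26.5% (14.9 to 41.1%) of these barcodes.

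The cell classes that held members were then compared. Barcodes were assigned by marker genes to the class with most distinct markers, at least 2 and more than any other class, or to hepatocyte-like when hepatocyte markers took 10% of UMIs. S100a8 and S100a9, found in 91.3% and 86.2% of barcodes of the library labelled 7 days, and Alb, found in 90.5% of those labelled 1 day, were not counted as distinct markers. The ending -like marks that the classes are rebuilt, and between 22.0 and 27.5% of barcodes received none. Among the leading genes of the sinusoidal endothelial-like class were Gp9 and Gp1bb, genes of platelets. Neutrophils, which are known to be past division once mature, serve as the class that should lack these transcripts. Of neutrophil-like barcodes labelled control, 11 of 215 held 3 or more members (5.12%, 2.58 to 8.97%, median depth 612 UMIs), and of those labelled 7 days, 5 of 1744 (0.287%, 0.0932 to 0.668%, median depth 443 UMIs). Shares at or below these levels are read as background, and the part of free RNA in them was not tested. The library labelled 1 day held 19 neutrophil-like barcodes, 1 of them with 3 or more members, and gives no such level. Member UMIs of neutrophil-like barcodes were at 975 CPM (823 to 1147) in the library labelled control and 210 (181 to 242) in that labelled 7 days. With a ratio of 0.215 (0.172 to 0.269), the class that should lack members thus also differed between these libraries.

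T cell-like barcodes had the highest level of member transcripts of all classes with 50 barcodes or more, in the libraries labelled control and 7 days. Of those labelled control, 158 of 465 held 3 or more members (34.0%, 29.7 to 38.5%), at 7389 member CPM. Of those labelled 1 day, 20 of 151 did (13.2%, 8.28 to 19.7%), at 3113 CPM. Of those labelled 7 days, 16 of 83 did (19.3%, 11.4 to 29.4%), at 4359 CPM. Top2a reached 1156 CPM in T cell-like barcodes of the library labelled control, 333 in those labelled 1 day and 506 in those labelled 7 days. These 83 barcodes were 1.48% of the library labelled 7 days and held 32.7% of its barcodes with 3 or more members. Median depths were 625, 488 and 440 UMIs, and after thinning the shares were 22.4% (18.7 to 26.4%), 6.80% (3.31 to 12.2%) and 17.9% (9.61 to 29.2%).

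NK cell-like barcodes were next in the library labelled control, with 55 of 220 (25.0%, 19.4 to 31.3%) at 5267 member CPM. In the libraries labelled 1 and 7 days 0 of 29 and 0 of 14 NK cell-like barcodes held 3 or more, too few for a share. The cDC1-like class, dendritic cells that present antigen to cytotoxic T cells, had similar shares in 2 libraries, 50 of 239 in that labelled control (20.9%, 15.9 to 26.6%) and 18 of 76 in that labelled 1 day (23.7%, 14.7 to 34.8%). Median depths were 768 and 779 UMIs, and the thinned shares 11.4% (7.68 to 16.2%) and 10.5% (4.66 to 19.7%). Their member UMIs were at 3696 and 3247 CPM, a ratio of 0.879 with an interval that held 1 (0.749 to 1.03). B cell-like barcodes were at 2086 and 1640 member CPM in these libraries, again with an interval of the ratio that held 1 (0.609 to 1.01), while 15 of 180 (8.33%, 4.74 to 13.4%) and 3 of 115 (2.61%, 0.541 to 7.43%) held 3 or more. Summed over all members, the cDC1-like class thus showed no difference that the counts could resolve, with a lower bound of 0.749. T cell-like barcodes in the same libraries stood at 0.421 times (0.370 to 0.478). The sum hid a difference between the sides in cDC1-like barcodes. Their mitosis side was at 3277 CPM (3038 to 3529) in the library labelled control and 2572 (2189 to 3002) in that labelled 1 day. Their replication side went the other way, at 419 (336 to 516) and 675 CPM (487 to 912), with intervals that overlap. Markers of other cells moved with both classes. From the library labelled control to that labelled 1 day, Alb was at 116 and 4583 CPM in T cell-like and at 113 and 3086 CPM in cDC1-like barcodes. Kupffer cell markers were at 355 and 1286 CPM in the former and sinusoidal endothelial markers at 242 and 1562. T cell markers were at 4710 and 6065 CPM in T cell-like barcodes, and the part of the other transcripts in the ratio was not tested.

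Kupffer cell-like barcodes held members in all 3 libraries. Of those labelled control, 257 of 1523 held 3 or more (16.9%, 15.0 to 18.9%), in the library labelled 1 day 127 of 2167 (5.86%, 4.91 to 6.93%) and in the library labelled 7 days 4 of 148 (2.70%, 0.741 to 6.78%). Their member UMIs were at 1999, 1166 and 808 CPM. Transcripts of other cells in the same barcodes moved too, Alb being at 574, 4775 and 98.7 CPM, S100a8 and S100a9 together at 1462, 360 and 9440, and sinusoidal endothelial markers at 559, 2325 and 224. Kupffer cell markers were at 14190, 14649 and 15874 CPM, and the part of the other transcripts in the difference was not tested. Median depths were 785, 540 and 548 UMIs, and the thinned shares were 7.70% (6.40 to 9.17%), 2.00% (1.45 to 2.69%) and 1.54% (0.187 to 5.45%). Mki67 was at 244, 102 and 89.7 CPM in this class.

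The 2 other macrophage classes differed. Of Gpnmb and Trem2 macrophage-like barcodes, 98 of 883 in the library labelled control held 3 or more members (11.1%, 9.10 to 13.4%), and 0 of 243 in the library labelled 7 days, which by a floor of 3 barcodes allows a share of up to 1.23%. At median depths of 906 and 517 UMIs, thinning took the first share to 3.31% (2.23 to 4.73%), within the thinned interval of neutrophil-like barcodes of that library (0.516 to 4.76%). Their member UMIs were at 1787 (1705 to 1873) and 293 CPM, a ratio of 0.164 (0.119 to 0.221). This interval overlaps that of neutrophil-like barcodes in the same libraries (0.172 to 0.269). By CPM, unlike by thinned share, the class lay above the neutrophil-like barcodes of the library labelled control (975, 823 to 1147). In this class Mki67 had 181 UMIs in the library labelled control and 2 in that labelled 7 days, whereas Pcna was at 168 and 173 CPM. Of Arg1 and Ccl2 macrophage-like barcodes, 0 of 839 in the library labelled 7 days held 3 or more, which by the same floor allows up to 0.358%. These 839 barcodes held 44 Pcna UMIs and 0 of Mki67. Monocyte-like barcodes stood at 62 of 1447 in the library labelled control (4.28%), at the level of neutrophil-like barcodes, and at 8 of 888 in the library labelled 7 days (0.901%, 0.390 to 1.77%).

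Mesenchymal-like barcodes, the collagen-producing cells, were nearly all in the library labelled control, where 41 of 481 held 3 or more members (8.52%, 6.19 to 11.4%) at 1483 member CPM. Their thinned share was 2.56% (1.33 to 4.43%), against 1.89% (0.516 to 4.76%, 4 of 212) in neutrophil-like barcodes. By CPM, however, mesenchymal-like barcodes (1380 to 1591) lay above the neutrophil-like ones of that library (823 to 1147). Sinusoidal endothelial-like barcodes stood at 70 of 1582 in the library labelled control (4.42%), by this share no higher than neutrophil-like ones. Their member UMIs in that library were at 1261 CPM (1194 to 1331), above the 975 CPM (823 to 1147) of its neutrophil-like barcodes. The thinned shares were 2.64% (1.90 to 3.57%) and 1.89% (0.516 to 4.76%). In the library labelled 1 day 121 of 4109 sinusoidal endothelial-like barcodes held 3 or more members (2.94%, 2.45 to 3.51%). Although these were few, the class held 30.0% of such barcodes in that library, since it was 44.4% of all its barcodes. Of 251 hepatocyte-like barcodes in the library labelled 1 day, 12 held 3 or more (4.78%), at a median depth of 1380 UMIs. After thinning 1 of 250 did (0.400%), and their 312 member CPM were the lowest of the classes with 50 barcodes or more in that library. Barcodes with genes of neutrophil granules, which precursors of neutrophils make, numbered 21 in the library labelled control, and 11 of them held 3 or more members.

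**Figure D4:**
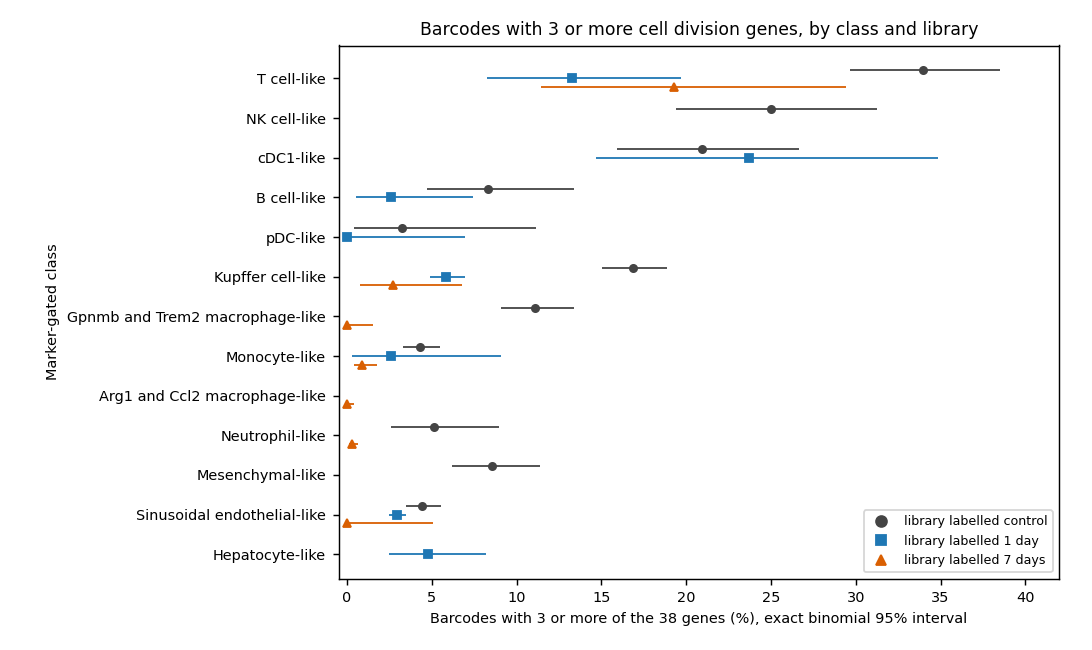
Percentage of barcodes with 3 or more of the 38 genes in each marker-gated class and library, with exact binomial 95% intervals, for classes with 50 barcodes or more. T cell-like barcodes lie at 34.0, 13.2 and 19.3% in the libraries labelled control, 1 day and 7 days, and neutrophil-like ones at 5.12% in that labelled control and 0.287% in that labelled 7 days.

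The order of the libraries was also found after barcodes gated as T cell-like and NK cell-like had been left out. Without T cell-like and NK cell-like barcodes the member UMIs were at 1712, 984 and 317 CPM, and without Kupffer cell-like ones as well at 1641, 928 and 299. The share with 3 or more members was then 7.86%, 3.71% and 0.539%. Barcodes without a class showed the same order, at 1895, 1092 and 399 member CPM. B cell-like barcodes, any lymphocytes without a class and free RNA remain in all these sums, and their part was not tested.

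The balance of the sides also differed by class. In T cell-like barcodes of the library labelled control the replication side was at 1082 and the mitosis side at 6307 CPM, a ratio of 0.172, and in Kupffer cell-like barcodes at 523 and 1476, a ratio of 0.354. T cell-like barcodes labelled 7 days had a ratio of 0.414, with 1276 and 3082 CPM, and Kupffer cell-like ones of 0.667. The other myeloid classes of that library had nearly as much replication-side as mitosis-side transcript, or more. Their ratios were 0.969 in neutrophil-like, 1.63 in monocyte-like, 2.71 in Arg1 and Ccl2 macrophage-like and 3.89 in Gpnmb and Trem2 macrophage-like barcodes. The mitosis side was at 107, 129, 47.1 and 60.0 CPM in these 4 classes, on 96, 68, 21 and 9 UMIs. The replication side was at 103, 211, 128 and 233 CPM. Most of it was Pcna, at 54.4, 142, 98.8 and 173 CPM, so these ratios rest largely on that gene. Kupffer cell-like barcodes of that library had Pcna at 144 CPM. In monocyte-like barcodes Pcna was higher in the library labelled 7 days than in that labelled control, at 142 against 85.7, while Top2a was at 9.49 against 137.

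**Figure D5:**
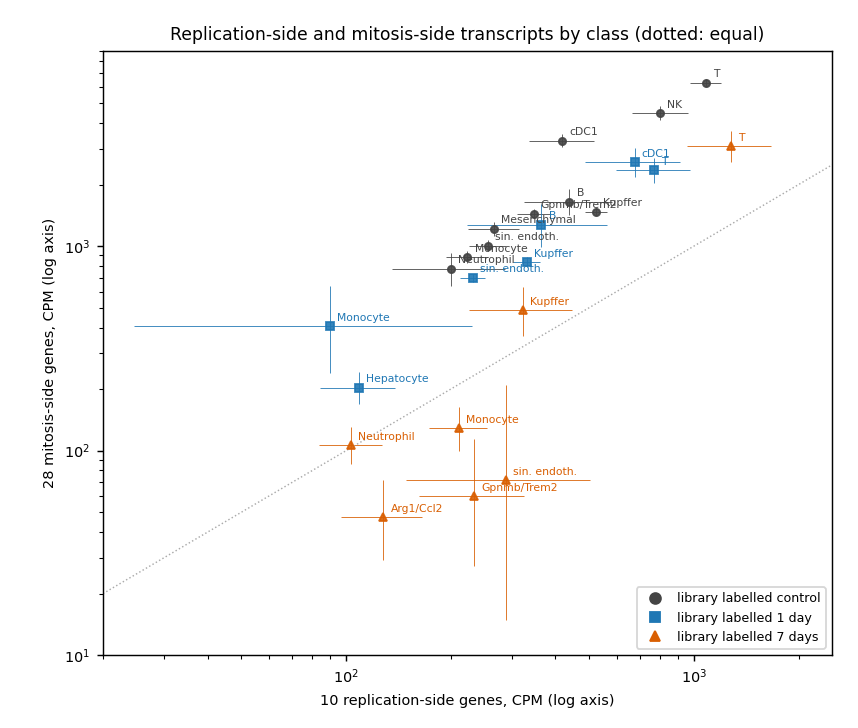
Replication-side against mitosis-side transcripts in each class and library, in CPM on log axes with exact Poisson 95% intervals; pDC-like barcodes, with 26 member UMIs or fewer, are left out. Most points lie above the dotted line of equality, and those of the library labelled 7 days (triangles) lie close to or below it apart from T cell-like and Kupffer cell-like barcodes. Pcna supplied 57.9% of the replication-side UMIs of that library.

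Other genes of the cycle were counted by library in the same way, against 7.14% of genes at least 2-fold lower in the library labelled 1 day and 26.3% in that labelled 7 days. Of 32 other replication genes, 6 were at least 2-fold lower in the library labelled 1 day than in that labelled control, and 24 in the library labelled 7 days. Mcm10 had 64, 59 and 2 UMIs, and Gins2, a helicase partner, was within 2-fold at 114, 75 and 55. Of 45 other mitosis genes, 17 and 41 were lower. Ckap2 had 152, 65 and 1 UMIs and Nuf2, a kinetochore protein, 119, 52 and 1, whereas Pttg1 had 523, 568 and 308. Of 10 G1 cyclins and kinases, 1 and 3 were lower, near the share of all genes, and Cdk6 was at least 2-fold higher in the library labelled 7 days (2.18 times). Of 16 cell cycle inhibitors, 6 were at least 2-fold higher in the library labelled 7 days, against 8.79% of genes, and 4 were lower, near the share of all genes. Cdkn1a (p21), a target of p53, had 1446, 531 and 3417 UMIs, so that the library labelled 7 days stood at 6.19 times that labelled control, and Gadd45a at 3.93 times. Cdkn1c and Cdkn2c were lower, at 0.162 and 0.202 times. Of 14 chromatin proteins, 2 and 4 were lower, the latter near that share. Hmgb3 had 161, 80 and 3 UMIs, and Lmnb1, a lamin, stood at 4.96 times in the library labelled 7 days. These changes of inhibitors and Lmnb1 moved together with the neutrophil markers, which summed to 4046, 741 and 43930 CPM with all 12 found in each library, and the part of that shift in them was not tested.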

How the data were processed

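The 3 Drop-seq libraries of mouse liver, 1 per condition, were analysed as deposited. Per the file headers, the authors obtained the counts with the DigitalExpression program of the Drop-seq tools, from sense-strand reads of coding and untranslated bases, at a mapping quality of 10 or more and with UMIs merged at an edit distance of 1. These deposited counts were not normalized. The submitters' processing notes name STAR 2.5.2a and the build hg19, which is a human build although the symbols are those of mouse genes. No coordinates were therefore taken from the files, and the annotation is not given in the sources used here. The labels estimate 1000 cells in the amplified cDNA, against 5624 to 10386 barcodes kept here. The paper's methods state another pulse voltage than the labels.

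UMIs were summed per library and class in Python 3.11.15 with NumPy 2.4.6 and SciPy 1.17.1. Sums were scaled to 1000000 UMIs of the same barcodes (CPM). Barcodes were thinned without replacement with seed 1. A gene at 0 was set to 3 counts for a bound, and classes under 50 barcodes are given as counts. Doublets were kept, and the deepest 5% of barcodes were removed as an alternative. The ratios and the thinning were tested on simulated data. The precision is that of the UMI counts and covers neither animals nor libraries.

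The members and gene lists were chosen with earlier results of these data known. The way markers assign a barcode to a class was chosen after marker detection had been seen. Values in every library are given for members with 20 UMIs in 2 libraries that differed by 2-fold in 1 comparison, for the 30 with most UMIs, and for others where a count or feature is singled out. From each pathway list up to 2 genes with the largest ratio in each direction were eligible. Alternatives covered the filter on barcodes, the denominator, the genes Stmn1, Pcna and Tyms, the number of members or markers, thinning and the fold.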

Additional observations from a re-analysis of the deposited data

Results flagged for a closer look

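Barcodes under 200 genes, which no comparison above used, also held members. They stood at 610 CPM in the library labelled control (exact Poisson interval 576 to 645), 690 in that labelled 1 day (657 to 724) and 190 in that labelled 7 days (169 to 213). Of these barcodes, 50 of 5318, 33 of 8908 and 2 of 6842 held 3 or more members.

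The difference between the libraries labelled 7 days and 1 day had opposite directions in different classes. Member CPM stood at 1.40 times in T cell-like barcodes (1.15 to 1.70), but at 0.692 times in Kupffer cell-like (0.554 to 0.856) and 0.385 times in sinusoidal endothelial-like barcodes (0.215 to 0.637). With 1 library each, the difference between classes was not tested, and the first ratio rests on 83 barcodes of the library labelled 7 days. T cell markers in T cell-like barcodes also differed, at 6065 CPM in the library labelled 1 day and 9801 in that labelled 7 days. In the same barcodes Alb was at 4583 and 24.1 CPM, and S100a8 and S100a9 together at 264 and 9512. The part of these other transcripts in the T cell-like ratio was not tested.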

How the results depend on the processing

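No paired analysis was possible because each condition is 1 library, and no library could be left out. The order control, 1 day, 7 days of the labelled libraries held under all 9 settings for the summed members and all 11 for the share of barcodes. In that order, summed CPM were 2890, 1236 and 464 over barcodes with 500 or more genes, 1748, 921 and 312 over every deposited barcode, 1789, 976 and 350 without the deepest 5%, and 1751, 851 and 238 without Stmn1, Pcna and Tyms. With at most 20% mitochondrial UMIs they were 2633 and 1270 in the first 2, without mitochondrial genes in the total 2557 and 1295, and without hepatocyte markers too 2562 and 1348. Shares with 3 or more members were 25.2, 13.9 and 2.71% with 500 or more genes, 7.41, 2.40 and 0.409% over every barcode, and 5.63, 1.65 and 0.492% after thinning to 300 UMIs. Thinned to 500 UMIs they were 9.85% in the library labelled control and 1.18% in that labelled 7 days. With 2 or more members they were 15.4, 8.61 and 1.90%, and with 5 or more 7.30, 2.13 and 0.445%. In the libraries labelled control and 1 day they were 16.0 and 8.37% with at most 20% mitochondrial UMIs, 9.30 and 3.58% without the deepest 5%, and 9.45 and 3.63% without the 3 genes.

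With 3 distinct markers the T cell-like share was 42.3% in the library labelled control and 20.3% in that labelled 1 day, and the Gpnmb and Trem2 macrophage-like share 13.8%. Thinning to 300 UMIs took classes of the library labelled control to 1.89% (neutrophil-like), 1.90% (monocyte-like), 7.70% (Kupffer cell-like), 3.31% (Gpnmb and Trem2 macrophage-like), 11.4% (cDC1-like), 0% (pDC-like), 22.4% (T cell-like), 15.8% (NK cell-like), 2.64% (sinusoidal endothelial-like) and 2.56% (mesenchymal-like). In the library labelled 1 day it gave 2.00% (Kupffer cell-like), 10.5% (cDC1-like), 6.80% (T cell-like), 1.28% (sinusoidal endothelial-like) and 0.400% (hepatocyte-like), and in that labelled 7 days 0.247% (monocyte-like). At 1.5-fold, 30 members were lower in the library labelled 1 day than in that labelled control. Leaving out barcodes shared between libraries and counting every marker, both chosen after seeing the data, moved no value beyond its counting interval. The shares are limited by depth, since a barcode of 500 UMIs shows few members.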
